A study of Glycine max with 6 samples.

Results

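The FLOWERING LOCUS T (FT) genes of soybean were followed in leaf RNA of the cultivar BR16, at 80 and at 20 days after germination (DAG). The family was taken as 10 gene models of the count table, FT1a, FT1b, FT2a, FT2b, FT3a, FT3b, FT4, FT5a, FT5b and FT6, out of 56044 gene models in all. Members were defined by their identifiers and not by their expression, though with earlier results of these data known. Leaf disks from untransformed plants grown in soil in a greenhouse were sequenced in 3 libraries of 80 DAG, at the late reproductive stage R7, and 3 libraries of 20 DAG, at the vegetative stage V3. Stages are those given by the study, whereas the sample labels describe both ages as vegetative. Age and stage changed together, and the study took disks from the third and the seventh trifoliate leaf without saying which belonged to which stage, so that age, stage and leaf position cannot be told apart. The hour of sampling and the day length of these plants are not given in the sources used here.

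FT proteins are the mobile flowering signal known as florigen. In a leaf that perceives an inductive day length, FT is transcribed in the phloem, and the protein moves to the shoot apex, where it joins the bZIP factor FD and switches on floral identity genes such as APETALA1. Soybean is a short-day plant, and its FT genes have diverged. FT2a and FT5a promote flowering and are held down by the legume repressor E1, while FT1a and FT4 delay flowering. FT2a is the gene of maturity locus E9, and FT4 has been proposed for locus E10.

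The genes lie in neighbouring pairs. In the RefSeq gene table (Glycine_max_v4.0), 9 of the names were found as symbols, and FT4 was matched to the entry that carries the synonym E10, since its name is not in the table. There, FT1a and FT1b on chromosome 18, FT5b and FT3b on chromosome 19, and FT4 and FT6 on chromosome 8 were direct neighbours. On chromosome 16, FT2a and FT2b were separated by 1 other gene and FT5a and FT3a by 2. Reads of such similar genes are of uncertain assignment, because the handling of reads that match several genes, and whether counting used strand, are not given in the sources used here.

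The libraries of 80 DAG held 12353418 to 15883253 counts and those of 20 DAG 10758425 to 12184798 counts. Of 30058 genes with enough counts to be tested, 14758 (49.1%) had a Benjamini-Hochberg adjusted p under 0.05 when 80 DAG was tested against 20 DAG with the quasi-likelihood F test of edgeR. Expression is given in CPM, the usual scaling of a count to the size of its library, here with TMM factors applied. As a check of the tissue, the summed level of 2 gene models listed as Rubisco small subunit, a photosynthetic protein of leaf mesophyll, was 479.9 to 886.0 CPM at 80 DAG and 1346 to 4218 CPM at 20 DAG, and both genes fell. Gene models listed as seed storage proteins had 0 counts in the 80 DAG libraries and at most 6 in a 20 DAG library (7 of 9 were at 0 in every library), and all 4 listed as leghemoglobin, a nodule protein, were at 0. In leaf disks, fewer cells of a type and less RNA per cell cannot be told apart, and phloem markers were not analysed here.

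Of the 10 FT genes, 7 were called higher at 80 DAG by edgeR, and their 80 DAG libraries were all above those of 20 DAG. These were FT2a, FT2b, FT3a, FT3b, FT5a, FT5b and FT6. The remaining members, FT1a, FT1b and FT4, had at most 1 count in any library and were not tested. Over all tested genes, 23.1% were called higher at 80 DAG, and 29.6% had every 80 DAG library above every 20 DAG library. The count of 7 cannot be read as a rate over tested members, because FT2b, FT3a, FT3b, FT5b and FT6 passed the expression filter through their 80 DAG libraries alone. Each 80 DAG library had counts for 7 FT genes, against 3, 3 and 4 in the 20 DAG libraries. The summed level of the family was 108.0, 121.1 and 76.5 CPM at 80 DAG, against 15.3, 17.0 and 18.3 CPM at 20 DAG.

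**Figure D1:**
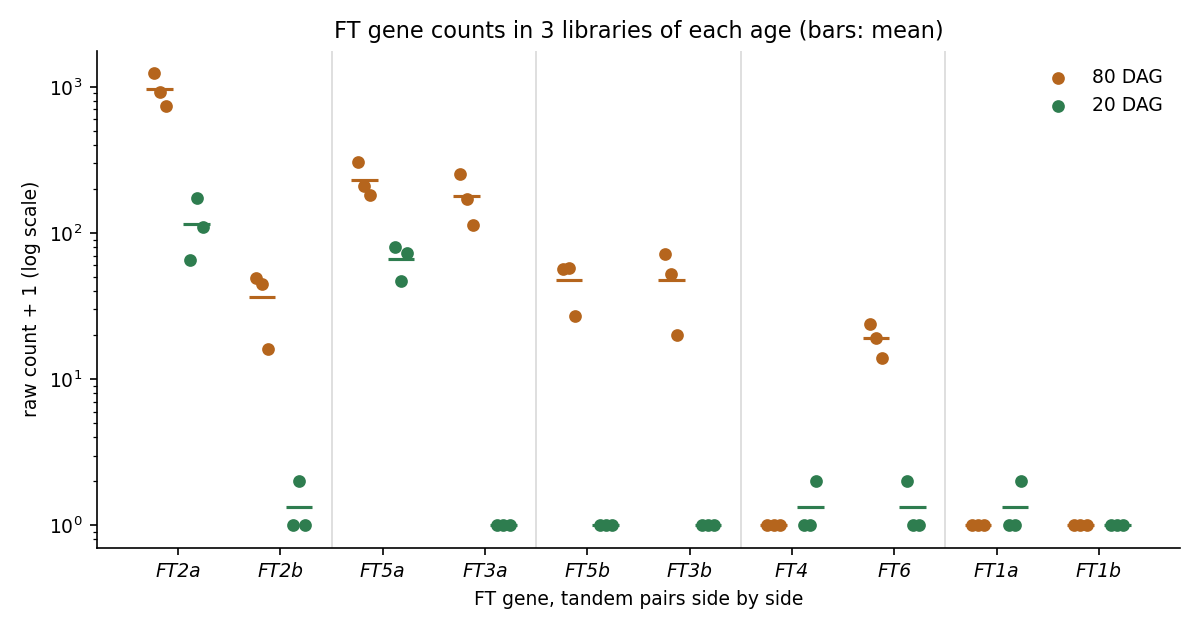
Raw counts plus 1 on a log axis for the 10 FT genes, with 1 point per library, a bar at the mean, and 80 DAG left of 20 DAG for each gene. FT2a and FT5a have counts in all 6 libraries, FT2b, FT3a, FT3b, FT5b and FT6 have at least 13 counts in each 80 DAG library and at most 1 at 20 DAG, and FT1a, FT1b and FT4 sit at 0 or 1 throughout.

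FT2a (Glyma.16G150700), a promoter of flowering, had 1235, 926 and 739 counts at 80 DAG, against 64, 172 and 109 counts at 20 DAG. The lowest 80 DAG library was thus well above the highest 20 DAG library. After scaling, FT2a averaged 64.8 ± 12.6 CPM at 80 DAG and 10.4 ± 3.32 CPM at 20 DAG (SD, n = 3 each). In the fit this was a 6.23-fold rise, or 2.64 ± 0.29 (SE) on the log2 scale, with an edgeR adjusted p of 0.000491. A rise called at a log2 fold change at least as large was found in 5.0% of all tested genes.

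FT2b (Glyma.16G151000), the neighbour of FT2a, was close to undetected at 20 DAG. It had 48, 44 and 15 counts at 80 DAG, against 0, 1 and 0 counts at 20 DAG. In CPM this was 2.42 ± 1.30 at 80 DAG and 0.026 ± 0.045 at 20 DAG (SD, n = 3 each). Set against a floor of 3 counts in each 20 DAG library, FT2b was at least 8.52-fold higher at 80 DAG. Its adjusted p of 0.0019 (edgeR) is that of the fitted difference between ages and not of this bound. The same holds for each lower bound below.

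FT5a (Glyma.16G044100), also a promoter of flowering, had 304, 207 and 180 counts at 80 DAG, against 79, 46 and 72 counts at 20 DAG. It averaged 15.3 ± 2.49 CPM at 80 DAG and 6.39 ± 2.51 CPM at 20 DAG (SD, n = 3 each). The groups did not overlap, but the difference was smaller than that of FT2a, with a 2.42-fold rise, or 1.27 ± 0.32 (SE) on the log2 scale, at an edgeR adjusted p of 0.0136. Among all genes tested, 13.1% were called with a rise at least as large. The fold changes of FT2a and FT5a were not tested against each other. The 20 DAG libraries differed in the balance of both florigen genes. At 20 DAG, replicate 1 had the lowest FT2a level (6.81 CPM) and the highest FT5a level (8.41 CPM), and replicate 2 had the highest FT2a level (13.4 CPM) and the lowest FT5a level (3.58 CPM).

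The counts of FT2a over those of FT5a gave ratios of 4.06, 4.47 and 4.11 in the 80 DAG libraries, against 0.810, 3.74 and 1.51 in the 20 DAG libraries. The 80 DAG libraries were close to each other in this ratio and the 20 DAG libraries were not. On the log2 scale the ratio was 2.07 ± 0.08 at 80 DAG and 0.73 ± 1.11 at 20 DAG (SD, n = 3 each). This ratio was chosen after its values were seen and is given with no test.

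FT3a (Glyma.16G044200), the neighbour of FT5a, was detected at this depth only at 80 DAG. It had 253, 169 and 112 counts at 80 DAG, against 0 counts in each 20 DAG library. At 80 DAG it averaged 11.8 ± 3.495 CPM (SD, n = 3), at least 41.5-fold above the floor of 3 counts per 20 DAG library (adjusted p = 0.00038, edgeR). Of the lower bounds in the family, that of FT3a was the largest.

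FT5b (Glyma.19G108200) and FT3b (Glyma.19G108100) are the chromosome 19 counterparts of FT5a and FT3a. FT5b had 56, 57 and 26 counts at 80 DAG, against 0 in every 20 DAG library. It averaged 3.18 ± 1.45 CPM at 80 DAG (SD, n = 3) and was at least 11.2-fold higher than at 20 DAG (adjusted p = 0.00213, edgeR). FT5b thus differed from its counterpart FT5a, which had counts at both ages. FT3b had 71, 51 and 19 counts at 80 DAG, against 0 in every 20 DAG library. Its level was 3.12 ± 1.57 CPM at 80 DAG (SD, n = 3), at least 10.99-fold higher than at 20 DAG (adjusted p = 0.00362, edgeR). Both genes of the chromosome 19 pair therefore had counts at 80 DAG and none at 20 DAG.

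FT6 (Glyma.08G363200) had 23, 18 and 13 counts at 80 DAG, against 1, 0 and 0 counts at 20 DAG. It averaged 1.21 ± 0.292 CPM at 80 DAG and 0.035 ± 0.061 CPM at 20 DAG (SD, n = 3 each), at least 4.26-fold higher (adjusted p = 0.00185, edgeR). Its neighbour FT4 (Glyma.08G363100), a repressor of flowering, had 0 counts in the 80 DAG libraries and 0, 0 and 1 counts at 20 DAG. FT1a (Glyma.18G298900), which delays flowering and maturation, had the same counts as FT4 at both ages, and FT1b (Glyma.18G299000) had no count in any library. For these 3 genes a level under 0.163 to 0.247 CPM in an 80 DAG library, or 0.233 to 0.319 CPM in a 20 DAG library, was not detectable, taking 3 counts as the limit. No fold change is given for them.

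**Figure D2:**
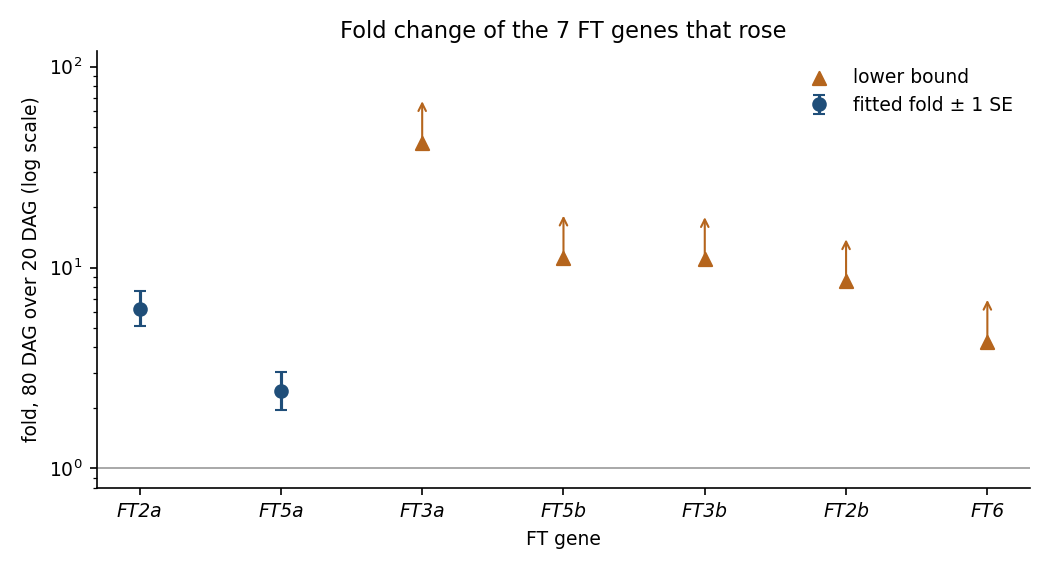
Fold of 80 DAG over 20 DAG on a log axis for the 7 FT genes that were higher at 80 DAG. Circles are fitted folds with 1 standard error, 6.23 for FT2a and 2.42 for FT5a, and triangles with arrows are lower bounds against 3 counts per 20 DAG library, from 4.26 for FT6 to 41.5 for FT3a, whose order does not give the order of the true folds.

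The pattern of at most 1 count in each 20 DAG library and at least 10 counts in each 80 DAG library was met by FT2b, FT3a, FT3b, FT5b and FT6, 5 of the 10 members. It was met by 132 of the 56044 gene models of the table (0.236%) and by 113 of the tested genes (0.376%). The opposite pattern, at most 1 count at 80 DAG and at least 10 at 20 DAG, was met by 428 tested genes (1.42%) and by no FT gene. These limits were not part of the planned tests, and the 5 members passed the filter through their 80 DAG libraries alone. The shares are therefore a description, given with no test.

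Unequal change within the neighbouring pairs could not be decided by a test in these libraries. The log2 ratio of the CPM of both genes, with 0.5 CPM added to each, was compared between ages in 4 pairs by an exact two-sided permutation test, which cannot give a p below 0.1 here. The exact p was 0.1 to 0.7 (adjusted 0.2 to 0.7). In every one of these pairs at least 1 gene had at most 1 count in each 20 DAG library, so that the 20 DAG ratio was set by the added constant. With 0.1 CPM added in place of 0.5, the difference between ages moved to −5.52, against −3.31, for FT5a over FT3a, and to −1.55, against 0.26, for FT2a over FT2b. For FT5a over FT3a the size of the difference thus depended on the constant, while its sign held with each library left out. In raw counts summed over the libraries of an age, FT3a had 534 beside 691 of FT5a at 80 DAG. At 20 DAG it had 0 beside 197. FT4 had no count at 80 DAG and 1 at 20 DAG, and FT5b and FT3b none at 20 DAG, so that their pairs held no further measurement.

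The 80 DAG libraries were not alike in the FT genes. Replicate 3 had the lowest CPM in all 7 genes, and it was also the lowest in 33.6% of all tested genes and in 25.4% of those called higher at 80 DAG. The shortfall differed between members. In replicate 3, FT3b was at 42.2%, FT2b at 42.9% and FT5b at 56.7% of the gene's 80 DAG mean, whereas FT2a was at 79.1% and FT5a at 81.4%. FT3a at 65.8% and FT6 at 74.5% lay between. The values of FT3b, FT2b, FT5b and FT6 rest on 19, 15, 26 and 13 counts in replicate 3, and differences between members were not tested. Replicate 2 had the highest CPM in all 7 genes. With library size alone in place of TMM, replicate 3 stayed the lowest in 7 of 7 genes (18.3% of all tested genes), while replicate 2 was the highest in 2 genes and replicate 1 in 5.

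**Figure D3:**
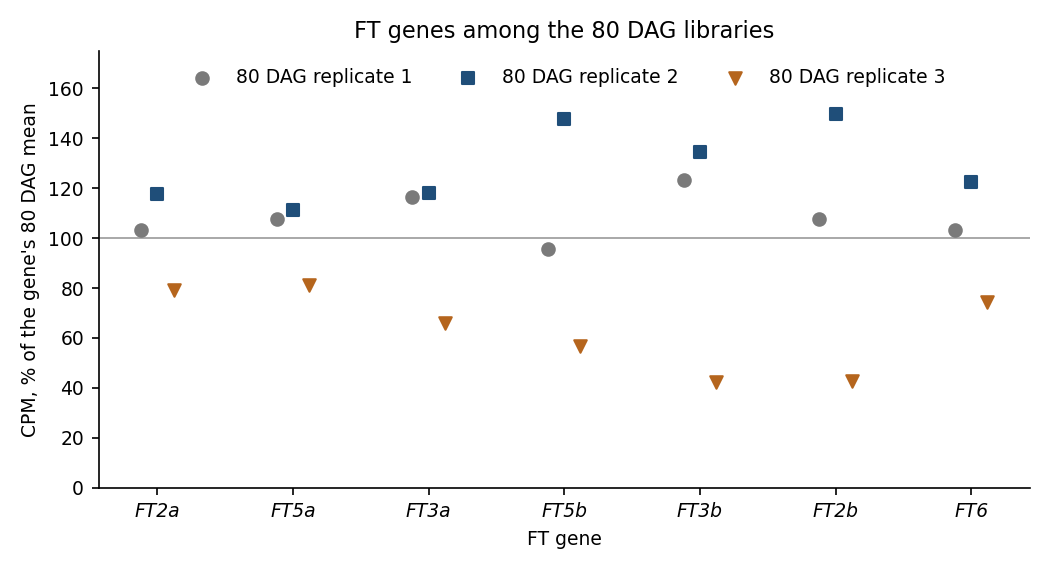
CPM of each 80 DAG library as a percent of the gene's 80 DAG mean, for the 7 FT genes that were higher at 80 DAG, with 1 symbol per replicate. Replicate 3 lies lowest for every gene, from 42.2% for FT3b to 81.4% for FT5a, and replicate 2 lies highest under TMM scaling.

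The genes around FT were read from a list of 30 gene models of the photoperiod pathway. The list gives their roles from general knowledge of soybean flowering, the sources used here do not pair these identifiers with names, and the genes are therefore described as groups. Of the 30 genes, 18 were tested, 3 rose, 7 fell and 8 did not pass the adjusted p threshold in edgeR. Called genes made up 49.1% of all tested genes, with 23.1% higher and 26% lower at 80 DAG. The median log2 fold change of the 18 was −0.25, beside −0.02 over all tested genes.

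Upstream of FT, the transcripts of E1 and its E1-like copies, the repressors of FT2a and FT5a, were near 0. The 3 genes together had 1 count over the 80 DAG libraries and 4 over the 20 DAG libraries, and no difference was detectable at this depth. The pair of CONSTANS-like 1 genes, relatives of the Arabidopsis activator of FT, fell, with log2 fold changes of −4.86 and −3.09 (adjusted p at most 0.000671, edgeR). Their summed level was 5.59 to 14.5 CPM at 80 DAG and 95.6 to 126.5 CPM at 20 DAG, far apart in every library. The pair of CONSTANS-like 2 genes was below the expression filter and had few counts. The first had 21, 8 and 9 counts at 80 DAG, against 0, 0 and 2 counts at 20 DAG, at least 2.84-fold higher, with an edgeR adjusted p of 0.0145 when all genes with a count were tested. The other had 8, 1 and 9 counts at 80 DAG, against 4, 6 and 4 counts at 20 DAG, and these overlapped. The 3 phytochrome A genes, light receptors, had log2 fold changes of −0.26 to 0.48 (adjusted p at least 0.101), and that of GIGANTEA, a clock protein upstream of FT, was 0.35 (adjusted p = 0.197).

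Among the circadian clock genes, LHY and the evening complex moved in opposite directions. All 4 genes listed as LHY, clock MYB factors whose transcripts cycle with the day, fell by log2 fold changes of −5.69 to −2.81 (adjusted p at most 0.000419, edgeR). Their summed level was 79.0 to 148.8 CPM at 80 DAG and 1437 to 1722 CPM at 20 DAG. The 3 genes of the evening complex, listed as ELF3 and LUX, rose by log2 fold changes of 2.79 to 5.18 (adjusted p at most 0.000465, edgeR). In sum they had 81.4 to 112.7 CPM at 80 DAG and 7.35 to 14.2 CPM at 20 DAG. The PRR3 genes had log2 fold changes of −0.30 and −0.24 (adjusted p at least 0.278). FT2a is itself transcribed with a daily rhythm in soybean. The part of the clock genes, and of the hour of sampling, in the FT values was not tested.

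**Figure D4:**
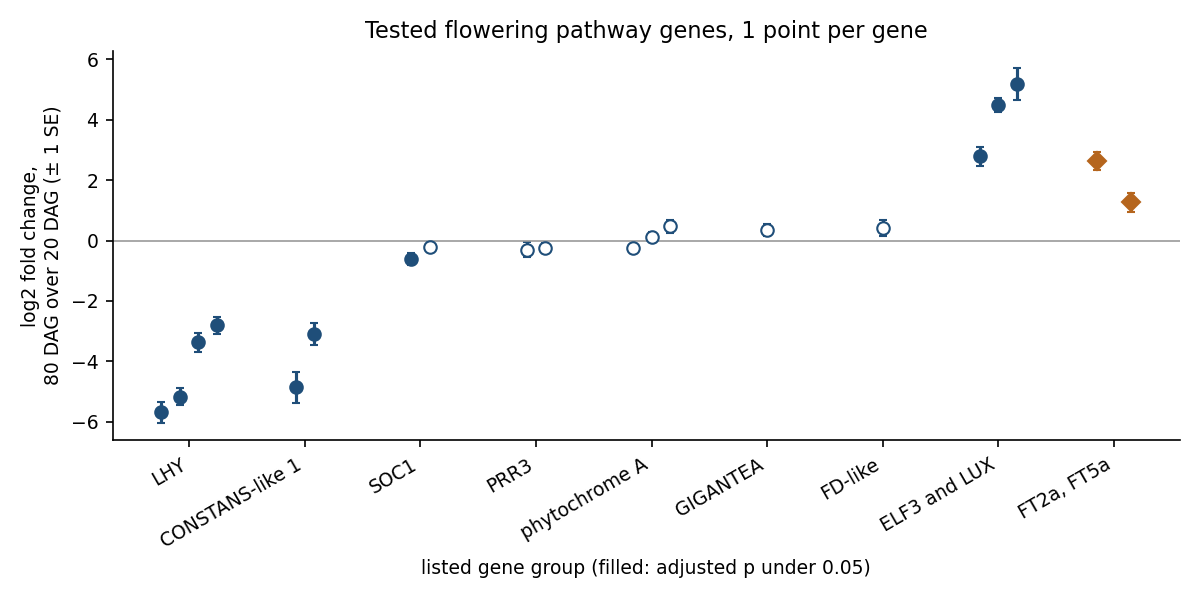
Log2 fold change of 80 DAG over 20 DAG with 1 standard error for the 18 tested genes of the photoperiod list by group, with 1 point per gene and filled points for an adjusted p under 0.05, beside FT2a and FT5a as diamonds. The LHY genes lie at −5.69 to −2.81 and the ELF3 and LUX genes at 2.79 to 5.18, on opposite sides of 0, and FT2a (2.64) and FT5a (1.27) lie above 0.

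Downstream of FT, counts differed between the listed groups. The SOC1 genes had a summed level of 41.7 to 53.4 CPM at 80 DAG and 54.3 to 63.6 CPM at 20 DAG, and the other groups had far less. The 5 listed APETALA1 and Dt2 genes, which act in floral identity and stem termination, each had at most 1 count in an 80 DAG library and at most 7 in a 20 DAG library, and none was tested. The TFL1 pair, members of the same protein family that counteract FT at the shoot apex, had 0 counts in all 6 libraries. The FD-like gene, listed as a partner of FT2a and FT5a, had 2.96 to 4.29 CPM at 80 DAG and 2.10 to 3.30 CPM at 20 DAG (log2 fold change 0.41, adjusted p = 0.226, edgeR). Of the SOC1 genes, floral integrators downstream of FT, 1 fell by 0.60 on the log2 scale (adjusted p = 0.0442, edgeR), a call that held in 5 of 13 alternatives (adjusted p 0.0248 to 0.170). The call was lost with library size alone, with no filter on low counts, and in 5 of the 6 fits that left out a library. The other SOC1 gene had a log2 fold change of −0.21 (adjusted p = 0.303), which turned to 0.01 with library size alone.

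FT2a, the FT gene with the most counts, was set against every other tested gene by the Pearson correlation of log2 (CPM + 0.5) over the 6 libraries. This is a description, since the points share libraries and scaling and fall into 2 ages. The most similar genes were Glyma.16G156300 (r = 0.9996) and Glyma.08G133200 (r = 0.9993), for which the sources used here give no name, and 152 of 30057 genes had an r of at least 0.99. The correlation does not take in the size of a change. These genes rose 2.67-fold and 1.51-fold, against 6.23-fold for FT2a. Within the family, FT3a had an r of 0.979 with FT2a, FT5b 0.973, FT2b 0.963, FT3b 0.962 and FT6 0.951. In that order, their ranks among the 30057 genes were 701, 999, 1588, 1677 and 2268. An r of at least 0.95 was found in 2330 genes, so these values do not set the family apart. These members had close to no counts at the younger age, so their r cannot show whether they vary with FT2a within an age. FT5a was the least similar to FT2a among the tested members, with an r of 0.779 (rank 8239).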

How the data were processed

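The authors extracted RNA with Trizol, depleted ribosomal RNA, prepared stranded TruSeq libraries and generated 100 bp paired-end reads. They deposited raw counts per gene of the Wm82.a2.v1 models, with no normalization. The submitters' processing notes name CASAVA 1.7, Bowtie2 and DESeq2 without their roles, and the counting program is not given in the sources used here. All 6 columns matched a sample title (0 unmatched).

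Counts were tested with edgeR 4.0.16 in R 4.3.3 (TMM, default expression filter, quasi-likelihood F test, Benjamini-Hochberg adjustment over all tested genes, threshold 0.05, no fold minimum). The study used DESeq2 with independent hypothesis weighting. CPM refers to the effective library size. Standard errors (SE) were derived from the F statistic and the log2 fold change. Where an age had at most 3 counts in each library, the fold is a lower bound against 3 counts per library. The adjusted p beside such a bound is that of the fitted difference, and the bound itself was not tested. The scripts were tested on simulated counts. Alternatives used DESeq2 1.42.0, limma 3.58.1, other scalings, filters and thresholds, a replicate block and each library left out. Replicates of an age differed by more than sampling noise (chi-square per degree of freedom 7.52 to 48.3).

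Members, lists and tests were chosen with earlier results of these data known. By rule, all FT genes, the called or preset genes of the photoperiod list, the genes most like FT2a, and other FT-related genes by RefSeq description were to be named. The RefSeq table used here has no descriptions and no soybean gene model identifiers. Pathway genes are therefore given as groups, and other FT-related genes were not analysed here. Of the 3 genes most like FT2a, 2 are printed. The tissue markers were listed after the data were seen. Gene lengths and sequences were not used here, so ratios of 2 genes are compared between libraries only and do not give their relative transcript levels.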

Additional observations from a re-analysis of the deposited data

How the results depend on the processing

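The number of FT genes called higher at 80 DAG was 7 under DESeq2, limma-voom, both other scalings, no filter on low counts, the replicate block, a log2 fold change of at least 1 and each library left out (7 to 7). It was 6 at an adjusted p under 0.01, where FT5a was lost, and 2 with at least 10 counts in every library, since that filter keeps only FT2a and FT5a. FT2a and FT5a passed under all 13 alternatives, with adjusted p up to 0.00496 for FT2a and 0.0449 for FT5a (without replicate 1 of 80 DAG) and log2 fold changes of 2.41 to 2.87 and 0.97 to 1.54. The other 5 genes passed under the 12 alternatives that kept them. Of the 30 photoperiod genes 10 were called, and 8 to 11 under the alternatives, where GIGANTEA was called by DESeq2 (adjusted p = 0.0286) and a phytochrome A gene with library size alone (adjusted p = 0.0239, edgeR). With no filter on low counts 4 of the photoperiod genes rose and 6 fell, with a CONSTANS-like 2 gene gained among those that rose (adjusted p = 0.0145, edgeR) and the SOC1 gene lost. With library size alone, the median over all genes was 0.21 on the log2 scale, and it moved the share of calls that rose to 54.4%, from 47.1% with TMM.

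Libraries with the same replicate number did not deviate together (correlations of −0.24, −0.33 and 0.07), and 0 of 6 libraries correlated best with their own number. With the replicate block all 7 FT genes stayed called, with an adjusted p of at most 0.0357, and 9 photoperiod genes were called, without the SOC1 gene.

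With 0.1 CPM added, the FT2a over FT2b difference between ages was −1.55. With 0.5 CPM added and each library left out, it ran from 0.01 to 0.43. For FT5b over FT3b, also with 0.5 CPM added, leaving out each library gave −0.077 (without replicate 3 of 80 DAG) to 0.24. Both pairs have a gene at or near 0 counts at 20 DAG. The comparison of levels per coding length was not run, because no lengths of these gene models were used. Depth limits FT1a, FT1b and FT4, and the 20 DAG level of all FT genes but FT2a and FT5a.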
